A study of Mus musculus with 2 samples.

Results

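The T cell receptor gene segments are the coding pieces from which every T cell builds its antigen receptor, and here their chromatin accessibility was described in mouse regulatory T cells. They were taken as all genes that GENCODE release M21 types as receptor V, D, J or C gene, which gave 226 of 55450 genes: 144 V, 4 D, 70 J and 8 C segments. Of these, 172 lie in the joint Tra/Trd locus on chromosome 14, 39 in Trb on chromosome 6 and 15 in Trg on chromosome 13. The study deposited ATAC-seq region lists for 2 libraries of 1 group, primary regulatory T cells of strain C57BL/6NJ, with no treatment, control group, sex or age given. The labels link a differentiation protocol for CD4+ T cells, which was not read, and the region names carry a mark of 72 h whose meaning is not stated. Both libraries carry the same donor identifier, so the spread between them may be technical. Replicate 1 held 68903 regions and replicate 2 held 78262, and 93.2% and 81.6% of those on the assembled chromosomes overlapped a region listed in the other replicate. All 5 regulatory T cell markers checked (Foxp3, Il2ra, Ctla4, Ikzf2 and Tnfrsf18) and all 5 general T cell markers had an accessible region at a start site in both replicates. Among markers of other lineages this held for 1 of 2 for CD8 T cells and 2 of 3 for gamma delta T cells. It also held for 2 of 5 for B cells, 1 of 2 for NK cells and 0 of 3 for myeloid cells. For comparison, 64.3% of 21938 protein-coding genes had a region within 1 kb of a start site in both replicates. The part of cells of other lineages in the values below was not tested.

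T cell receptors are assembled by V(D)J recombination, in which the RAG recombinase cuts beside a V, a D and a J segment and DNA repair joins them. The alpha and gamma chains join a V to a J, while the beta and delta chains also use a D, and the joined exon is spliced to a C segment that encodes the constant domain. In alpha beta T cells, to which regulatory T cells belong, joining within Tra removes the Trd segments that lie between Trav and Traj. Transcription of a joined gene starts at the promoter of its V segment and depends on an enhancer close to the C segments, known as E alpha for Tra and E beta for Trb. The libraries hold many cells with different joins, so DNA that was cut out in some cells and DNA that is packed away cannot be told apart from a region list.

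Each V, D and J segment borders a recombination signal, a heptamer and a nonamer parted by a spacer of 12 or 23 bases, and RAG pairs a short spacer with a long one. The signals were read from the mm10 genome at each border, with the spacer chosen by the better match to CACAGTG and ACAAAAACC. By this rule all 144 V segments were assigned the 23-base spacer at the 3′ border and 69 of 70 J segments the 12-base spacer at the 5′ border. All 4 D segments were assigned 12 bases on the 5′ side and 23 on the 3′ side. The exception was Traj20, whose better match had 23 bases. The rule assigns a spacer however poor the match. Of the 70 J heptamers 66 began with CAC, and that of Traj59, read 2 bases off the border, matched 2 of 7 bases. The examples show signals of each kind for segments whose accessibility is described later, each read outward from the segment, with the heptamer and nonamer in capitals.
Trbv1 3′ border, 23-base spacer, chr6:40891886-40891924, plus strand: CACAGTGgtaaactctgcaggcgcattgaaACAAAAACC
Trbd1 5′ border, 12-base spacer, chr6:41533173-41533200, minus strand: CACAATGttacagctttatACAAAAAAG
Trbd1 3′ border, 23-base spacer, chr6:41533213-41533251, plus strand: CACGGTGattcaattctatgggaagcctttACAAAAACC
Trbj2-5 5′ border, 12-base spacer, chr6:41543425-41543452, minus strand: CACAGCCccagaacccaacACAAAAACT
Trav15-1-dv6-1 3′ border, 23-base spacer, chr14:53560248-53560286, plus strand: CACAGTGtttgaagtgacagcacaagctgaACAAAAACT
Traj15 5′ border, 12-base spacer, chr14:54204394-54204421, minus strand: CACAGTGaaacgaggccctGCAAATTCT
Trdd2 3′ border, 23-base spacer, chr14:54122242-54122280, plus strand: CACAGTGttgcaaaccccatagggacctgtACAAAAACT
Trbv1 carried both consensus parts without a mismatch, whereas the Trbd1 and Trbj2-5 signals departed from them. The exact heptamer stood beside 72.9% of V segments (105 of 144), 28.6% of J segments (20 of 70) and 2 of the 8 D borders. Within the V segments it was found at 92 of 108 Trav and 8 of 22 Trbv.

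A segment was counted as accessible when a region of replicate 1 within 1 kb of it was overlapped by a region of replicate 2 that also lay within 1 kb. By this rule 55 of the 226 segments were accessible (24.3%). The share was 40.6% among 54711 other GENCODE genes, 10.3% among those shorter than 1 kb, 6.82% among 264 immunoglobulin segments and 7.42% among genome tiles of 2500 bp. The receptor segments thus lay below genes at large and above short genes, immunoglobulin segments and tiles. By class, 23 of 144 V (16%), 2 of 4 D (50%), 28 of 70 J (40%) and 2 of 8 C segments (25.0%) were accessible. By locus, the count was 24 of 39 in Trb (61.5%), 28 of 172 in Tra/Trd (16.3%) and 3 of 15 in Trg (20%). J segments lie close together and share regions: the accessible segments of all classes drew on 42 distinct regions in replicate 1 and 44 in replicate 2, and the J segments on 14 in each. A further 14 segments had a region in 1 replicate only, 2 had regions in each replicate that did not overlap, and 155 had none.

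**Figure D1:**
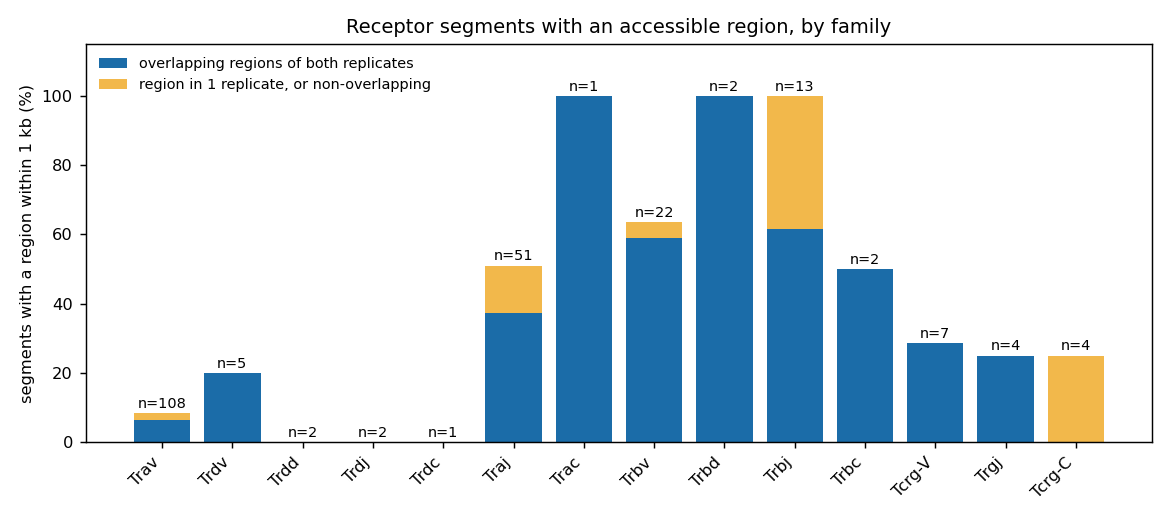
Share of receptor segments with an accessible region within 1 kb, by family, in percent on the vertical axis, with the number of segments above each bar. Blue marks segments with overlapping regions in both replicates and yellow those with a region in 1 replicate or regions that did not overlap; the 13 Trbj reach a region in every case, and the 5 Trd D, J and C segments in none.

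The C segments, which encode the constant domains and are used by the receptors of their locus, were accessible in 2 of 8 cases. Trac (chr14:54220521-54224206) and Trbc2 (chr6:41546730-41548352) were those with a replicated region. Trbc1, the other beta constant segment, and Trdc, Tcrg-C1, Tcrg-C2 and Tcrg-C3 had no region within 1 kb in either list, and Tcrg-C4 had 1 region, in its intron, in replicate 2 alone with a -log10 q of 6.51. The strongest Trac region lay in a Trac intron and had a -log10 q of 105.2 in replicate 1 and 167 in replicate 2. At Trbc2 the strongest values were 62.2 and 72.1, for a region whose summit lay 122 bp past the end of the segment in both replicates. Within their lists these values stood at percentile 85.0 and 87.9 for Trac and 75.1 and 73.6 for Trbc2. The counting rule required a region in each replicate, so presence in both lists is not a separate result. Trbc1 and Trbc2 both lie in sequence that is 90.8% and 90.7% unique, counted as the share of 32-base words from 1 kb before to 1 kb past a segment that occur once in the genome.

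Regions lay close together at Trac and past it. From the start of Trac to 20 kb past its end, 7 regions were listed in replicate 1 and 6 in replicate 2. The extra region of replicate 1 had its summit 20.2 kb past Trac, and only its edge lay in this stretch. That is 29.6 and 25.3 per 100 kb, against 1.21 in both replicates in the stretch of Tra/Trd V segments. Unique sequence made up 96.8% of the stretch from Trac and 41.3% of the V stretch, which limits this comparison. A region 582 bp before Trac, between the last Traj and Trac, had a -log10 q of 7.498 and 14.6. Past Trac, regions had their replicate 1 summits 1.16, 3.41, 7.05, 9.21 and 15.01 kb from its end. Their -log10 q was 25.6, 134.5, 8.03, 116.6 and 61.6 in replicate 1, and 53.4, 176.0, 5.29, 178.8 and 73.6 in replicate 2. The second and the fourth were the highest in both replicates, and the last lay in an intron of Dad1, a gene for a subunit of the oligosaccharyltransferase. The region 3.41 kb past Trac lies on the side of the constant exons where E alpha is known, and it is 1 of only 2 among 103 distinct regions of the loci that hold the palindromic cyclic AMP response element TGACGTCA. That match started 138 bp before the replicate 1 summit; the other was in the region at the start of Stard3nl, beside Trg.

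The windows at the 2 strongest regions past Trac are printed on the plus strand, 300 bases around the replicate 1 summit. Capitals mark matches on either strand to the motifs searched. RUNX factors were represented by the letters TGTGGT and ETS factors by the letters CGGAAG. For TCF and LEF factors the letters were TCAAAG, and for the cyclic AMP response element (CRE) they were TGACGTCA or TGATGTCA. The AP-1 search used TGANTCA, while the GATA search used AGATAA and the E box search used CAGGTG. The recombination heptamer and the CTCF core were also searched.
3′ of Trac, first, chr14:54227468-54227767: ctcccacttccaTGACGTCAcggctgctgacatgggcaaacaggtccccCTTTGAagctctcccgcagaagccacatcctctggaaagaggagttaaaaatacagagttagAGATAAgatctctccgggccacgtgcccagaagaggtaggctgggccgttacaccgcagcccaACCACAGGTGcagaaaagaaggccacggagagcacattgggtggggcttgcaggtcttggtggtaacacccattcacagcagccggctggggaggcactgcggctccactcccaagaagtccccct
3′ of Trac, second, chr14:54233269-54233568: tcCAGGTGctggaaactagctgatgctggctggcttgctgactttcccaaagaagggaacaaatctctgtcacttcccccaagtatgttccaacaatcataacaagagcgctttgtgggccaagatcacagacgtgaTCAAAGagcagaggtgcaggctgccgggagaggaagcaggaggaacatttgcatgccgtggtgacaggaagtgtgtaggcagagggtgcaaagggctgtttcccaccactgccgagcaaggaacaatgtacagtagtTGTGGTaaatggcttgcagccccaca
In the first window, a CRE, a TCF and LEF, a GATA, a RUNX and an E box match were found, the last pair overlapping. The second held an E box, a TCF and LEF and a RUNX match and no CRE. Among all 64172 replicated regions, 300-base windows held a RUNX match in 26%, TCF and LEF in 21.2%, CRE in 3.6%, GATA in 12.4% and an E box in 21.3%. These are matches of letters and were not tested as binding sites.

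The D segments, short pieces used only by the beta and delta chains, split by locus. Trbd1 (chr6:41533201-41533212) had a region with a -log10 q of 46.7 and 62.2, and Trbd2 (chr6:41542163-41542176) 20.2 and 49.1. Both summits lay 5′ of the segment, at -454 and -367 bp from the start of Trbd1 and at -242 and -237 bp from that of Trbd2. The Trbd1 region ended 35 bp short of the segment, so the recombination signals on either side of Trbd1 lay outside it. Trdd1 and Trdd2 had no region within 1 kb in either replicate, although the sequence around both is 100% unique. Trdj1, Trdj2, Trdc and Trdv5 had none either, so the 37.4 kb from Trdd1 to Trdv5, with 1 kb to either side, held 0 regions in both replicates. The empty stretch was longer: from Trdv2-2 to Traj52, 203.4 kb with 91.9% unique sequence held no region, and it covered 3 V, 2 D, 7 J and 1 C segment.

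The window 5′ of Trbd1 is printed because the known promoter of the unjoined segment lies on this side. It covers 300 bases on the plus strand around the replicate 1 summit, with RUNX matches in capitals.
5′ of Trbd1, chr6:41532597-41532896: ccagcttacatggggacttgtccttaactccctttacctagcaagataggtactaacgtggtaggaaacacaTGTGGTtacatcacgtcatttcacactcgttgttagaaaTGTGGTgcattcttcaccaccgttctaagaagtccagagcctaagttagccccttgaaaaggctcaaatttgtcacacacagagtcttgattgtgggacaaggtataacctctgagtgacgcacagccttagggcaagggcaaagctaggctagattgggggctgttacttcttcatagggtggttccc
It held 2 RUNX matches, and no other motif of the list.

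J segments, which supply the last part of the variable exon, were accessible in 8 of 13 cases in Trb, 19 of 51 in Traj, 1 of 4 in Trg and 0 of 2 in Trdj. In Trb, Trbj1-1 and Trbj1-2 were counted through the Trbd1 region, and Trbj2-1 and Trbj2-2 through the Trbd2 region. Trbj2-3 was counted through a weak region over the Trbj2 cluster, at 1.03 in replicate 1 and 2.63 in replicate 2, since the Trbd2 region came within 1 kb of it in replicate 2 only. Trbj2-4, Trbj2-5 and Trbj2-7 had a region past the end of the cluster with a -log10 q of 17.6 and 18.6. Trbj1-3 to Trbj1-7 shared a weak region that was listed in replicate 2 only, at 5.57. In Trg, Trgj4, the last J of the locus, had values of 11.8 and 15.5, and Trgj1, the first, had none.

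Along Traj the accessible segments came in groups. The highest mean of both replicates belonged to a region 352 bp past Traj11 and within 1 kb of Traj12, at a -log10 q of 27.1 in replicate 1 and 29.7 in replicate 2. A region shared by Traj21, Traj20, Traj19 and Traj18 had 19.1 and 31.6, the highest of replicate 2, and Traj18 is the segment used by the invariant receptor of NKT cells. Values were 20.5 and 20.8 at Traj7 and Traj6, 17.6 and 24.3 at Traj39 and Traj38, and 10.1 and 21.9 at Traj27, Traj26 and Traj25. Replicate 2 gave the higher value in each, and its list also had the higher median (25.6 against 21.8). By percentile within the lists, Traj11 stood at 55.7 in replicate 1 and 53.5 in replicate 2, and Traj7 at 48.5 and 44.4. The other groups named here ranked higher in replicate 2. Traj44, Traj43, Traj37, Traj35, Traj9 and Traj5 had a region within 1 kb in replicate 2 only, with values from 1.92 to 20.8, and Traj45 had regions in each replicate that did not overlap. The highest of these was Traj5, which fell within 1 kb of the longer replicate 2 region at Traj7 and Traj6. From Traj59 to Traj53, the 5′ end of the array, and at Traj2, its 3′ end, no region was listed.

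Regions of the J and C stretches ranked low by the deposited signal and much higher by -log10 q. In the 63.8 kb of the Traj stretch the median region stood at percentile 6.41 of its list by signal and 28.4 by -log10 q in replicate 1, and at 6.75 and 37.5 in replicate 2. All 9 regions of replicate 1 and all 12 of replicate 2 there lay below their list's median signal, and their highest signal was 4.13 and 4.01 against list medians of 6.57 and 6.07. From Trac to 20 kb past it the medians were 27.3 by signal and 74.9 by -log10 q in replicate 1, and 26.9 and 80.9 in replicate 2. The 27.3 kb from Trbd1 to Trbv31 gave 11.2 and 57.6 in replicate 1, and 6.25 and 51.7 in replicate 2. In the V stretches the order was the other way round, with 39.5 and 31.1 for Tra/Trd in replicate 1 and 43.9 and 37.1 for Trb. A percentile at least 40 points higher by -log10 q than by signal was found for 3 of 7 regions at Trac and 3 of 7 from Trbd1 to Trbv31 in replicate 1, and for 3 of 6 and 3 of 10 in replicate 2. It was found for 2 of 9 and 2 of 12 along Traj, for 0 of 20 and 0 of 20 in the Tra/Trd V stretch, and for 2.08% and 1.64% of the whole lists. The 40-point mark was chosen after these values were seen.

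**Figure D2:**
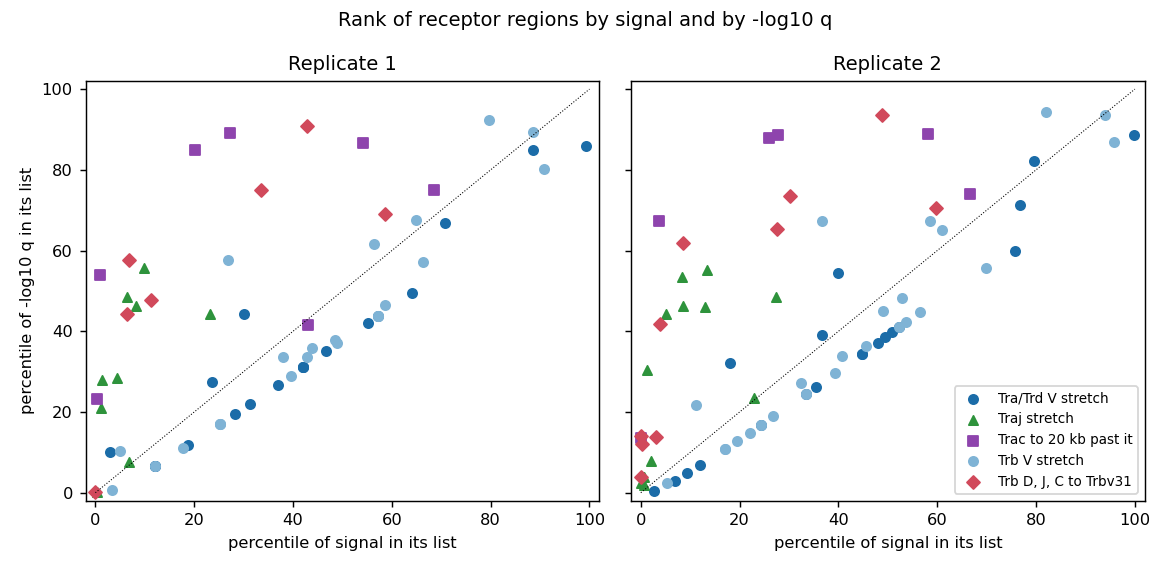
Each point is 1 region, placed by its percentile of signal (horizontal axis) and of -log10 q (vertical axis) within the list of its replicate, 1 panel per replicate, coloured by stretch, with a dotted line at equal ranks. Regions of the Traj stretch, of Trac and of Trbd1 to Trbv31 lie mostly above the line, at the left, and V stretch regions lie mostly below it.

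The counts of D, J and C segments changed with the measure. With the 50000 regions of highest signal in each list, J segments fell from 28 to 3, C from 2 to 0 and D from 2 to 1, while with the 50000 of highest -log10 q they were 21, 2 and 2. J counts also depended on the distance, since 5 of the J segments were overlapped by a replicated region themselves and 43 had one within 2 kb.

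V segments supply the bulk of the variable domain, and each has a promoter of its own. In Trb 13 of 22 were accessible (59.1%), in Trg 2 of 7 (28.6%), among Trav 7 of 108 (6.48%) and among Trdv 1 of 5 (20%). The strongest was Trbv12-1, with a -log10 q of 167.0 in replicate 1 and 270.4 in replicate 2. Trbv1, the first V of its locus, followed with 138.1 and 253.3, and Trav2 with 104.2 and 117.0. These 3 kept the same order in both replicates and stood above every other V segment, the next being Trbv5 at 43.7 in replicate 1 (48.4 in replicate 2) and Trbv12-2 at 53.6 in replicate 2. Trbv19 (34.2 and 53.4), Trbv12-2 (29.3 and 53.6) and Trbv31, the last V of the locus (29.1 and 41.8), completed the upper part of Trb, and the weakest accessible Trbv in replicate 1 was Trbv13-3 at 1.53 and 5.86. Trbv4, Trbv13-1, Trbv13-2, Trbv14, Trbv17, Trbv26, Trbv29 and Trbv30 had no region in either replicate, and Trbv20 had 1 in each that did not overlap.

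In Tra/Trd the accessible V segments were Trav2, Trav3-1, Trav5-1, Trav6-1, Trav10d, Trav6n-6, Trav15-1-dv6-1 and Trdv2-2. After Trav2 came Trav5-1 at 21.5 and 38.7, Trav6-1 at 16.5 and 16.4, Trav15-1-dv6-1 at 10.9 and 15.6 and Trav3-1 at 9.24 and 16.7. Trav6n-6 had 10.9 and 13.9 and Trav10d had 9.23 and 13.9, in sequence that is 49.8% and 26.8% unique. Around Trav15-1-dv6-1 the sequence is 38.15% unique, and the summits there lay 117 and 75 bp past the end of the segment. Trdv2-2 was the weakest, at 3.29 and 2.40, or percentile 6.64 and 2.975 of the lists. Trav1, the first V of the locus, and Trdv5, the last, had no region. Trav6d-4 had 1 in replicate 2 only (3.46) and Trav4-4-dv10 in replicate 1 only (4.63). In Trg, Tcrg-V7 had 28.4 and 36.3 and Trgv2 had 19.8 and 28.5, while Tcrg-V1, the last V, and Tcrg-V4, Tcrg-V6, Tcrg-V5 and Tcrg-V3 had none.

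For each V segment with a region, the summit nearest to the start of the segment was taken, a choice that favours this end. Most of these summits sat on the promoter side. The median distance from the start of the segment was -81 bp in replicate 1 and -90 bp in replicate 2, negative meaning upstream, and 18 of 25 summits in each replicate fell within 500 bp upstream. The recombination signal, at the other end of a V segment, was described by another measure, so the counts cannot be compared. The heptamer lay inside regions of both replicates for 10 V segments, 4 J segments (Traj20, Traj15, Traj7 and Trbj2-5) and 0 D borders. Of the 23 accessible V segments 43.5% had the exact heptamer, against 78.5% of the other 121. Trav, which is rarely accessible and mostly has it, and Trbv, which is often accessible and mostly lacks it, make up most of both groups, so this share moves with the locus.

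The 250 bases upstream of Trbv1 and Trav2, which are among the 3 strongest V segments, are printed in the direction of the segment, with the same motifs in capitals.
Trbv1 upstream, chr6:40890979-40891228: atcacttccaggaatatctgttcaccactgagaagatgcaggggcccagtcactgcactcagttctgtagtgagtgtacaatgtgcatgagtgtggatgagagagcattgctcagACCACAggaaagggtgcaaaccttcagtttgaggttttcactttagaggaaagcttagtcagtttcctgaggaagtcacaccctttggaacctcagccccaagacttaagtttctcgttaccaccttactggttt
Trav2 upstream, chr14:52566948-52567197: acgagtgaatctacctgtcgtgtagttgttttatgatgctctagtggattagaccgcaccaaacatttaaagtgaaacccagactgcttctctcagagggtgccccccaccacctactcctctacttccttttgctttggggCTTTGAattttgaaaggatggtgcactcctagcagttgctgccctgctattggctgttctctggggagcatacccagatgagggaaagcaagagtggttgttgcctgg
Trbv1 carried a RUNX and Trav2 a TCF and LEF match, so no motif of the list was common to both. A CRE was found upstream of 8 of 22 Trbv, from -89 to -51 bp of the start, and of 2 of 108 Trav and 0 of 7 Trg V segments. Over all V segments the share was 6.94%, against 4.81% of the upstream windows of 21938 protein-coding genes. Of the 8 Trbv with a CRE 5 were accessible and 3 were not (Trbv13-1, Trbv13-2 and Trbv29). That is near the share of all Trbv, 13 of 22 (59.1%). The ETS letters were upstream of 0 of 144 V segments and of 15.6% of protein-coding genes, and the CTCF core was upstream of 17 V segments, all of them Trav, which is 11.8% of V segments against 0.542% of protein-coding genes. Of these 17, 1 was accessible, near the share of all Trav, 7 of 108 (6.48%). The 17 may include copies of the same sequence, since 62 of the 108 Trav belong to duplicated blocks, and this was not tested.

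V segments arose by repeated duplication, and near-identical copies bear on what short reads can show. Of 144 V segments, 34 lay in sequence that was at least 90% unique and 12 of those were accessible (35.3%). Below 90% it was 11 of 110 (10%), and the mark was set after the data were seen. Of the 34, 20 were Trbv, and of the 110, 101 were Trav, so these shares also move with the locus. In Trg the order was reversed, with 0 of 3 accessible at or above 90% and 2 of 4 below. The median was 94.2% unique for accessible V segments and 29.2% for those with no region. The 62 Trav with d or n in their names, which belong to duplicated blocks, had a median of 1.45%, and 2 of them were accessible, against 5 of the other 46. The treatment of reads that map to several places is unknown, so an empty list over such copies cannot be read as closed chromatin. Uniqueness did not part the Trbv, with medians of 96.0% for accessible ones and 96.4% for those without a region. Nor were the unique Trav mostly accessible, since of the 7 at or above 90% only Trav5-1 was.

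Along the whole Tra/Trd window, from 50 kb before the first segment to 50 kb past the last, 41 regions were listed in replicate 1 and 43 in replicate 2, and 37 of the 41 were replicated. That is 21.6 and 22.7 regions per Mb, beside 26 and 29.5 over the genome. Long stretches were empty: 228.1 kb with 22 Trav (3.22% unique) and 424.2 kb with 40 Trav (19.1% unique) held none in either list. A single strong region broke the middle of the array, at the start of the antisense gene Gm30214, 2314 bp from Trav8d-2. It had a -log10 q of 112.0 and 174.7 and a signal at percentile 99.2 and 99.8. Its sequence is 49.5% unique, and the treatment of reads that map to several places is unknown. A region 1117 bp from Trav3-1, outside the 1 kb limit, had 42.5 and 64.6. The highest value of the window, 324.7 and 489.4, belonged to the shared start of Dad1 and Abhd4.

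**Figure D3:**
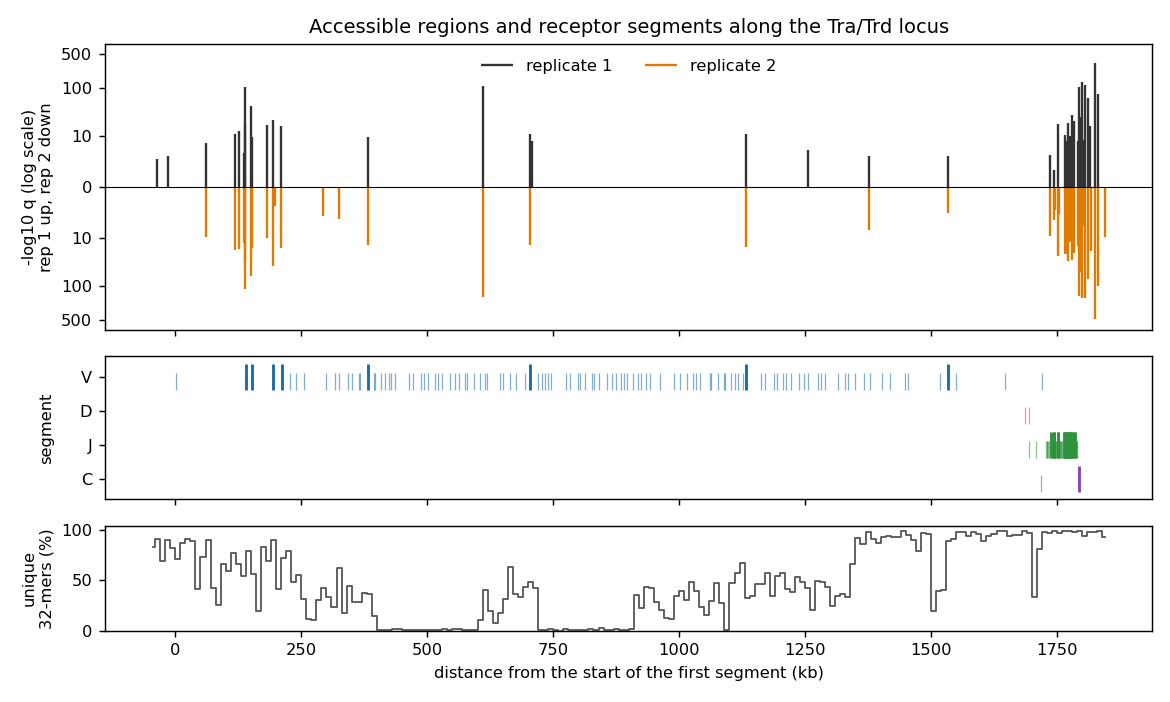
The Tra/Trd locus, by distance in kb from the start of its first segment. Top, -log10 q of each region on a log scale, replicate 1 upward and replicate 2 downward; middle, segments by class, tall and dark where accessible in both replicates; bottom, percent of unique 32-base words in bins of 10 kb. Regions crowd at the Traj and Trac end, and 2 long stretches of nearly no unique sequence hold none.

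The Trb window held 35 and 42 regions, 34 of the 35 replicated, or 45.6 and 54.7 per Mb. Regions lay along the V segments (5.86 and 6.87 per 100 kb) and from Trbd1 to Trbv31 (25.7 and 36.7 per 100 kb). The 249.2 kb between Trbv30 and Trbd1, which carries the trypsinogen genes, held 1 region in each list, at the pseudogene Gm38018. Unique sequence made up 60.6% of it, against 76.9% along the V segments and 96.3% from Trbd1 to Trbv31, which limits this comparison. The highest mean values of the window were, in order, at the start of Ephb6 (210.9 and 319.4), at Trbv12-1, between Trbc2 and Trbv31 (151.4 and 252.2) and at Trbv1. Next came a region within 1 kb of the V pseudogene Trbv7 (80.4 and 156.0). Past Trbc2, replicate 2 alone listed a region 1637 bp from its end (5.70), and replicate 2 alone listed 1 in the Trbc2 intron (5.06).

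The region between Trbc2 and Trbv31 lies where E beta is known, and its window is printed for that reason, 300 bases on the plus strand around a summit that was at the same base in both replicates. Capitals mark 2 RUNX and 1 E box match.
Between Trbc2 and Trbv31, chr6:41554460-41554759: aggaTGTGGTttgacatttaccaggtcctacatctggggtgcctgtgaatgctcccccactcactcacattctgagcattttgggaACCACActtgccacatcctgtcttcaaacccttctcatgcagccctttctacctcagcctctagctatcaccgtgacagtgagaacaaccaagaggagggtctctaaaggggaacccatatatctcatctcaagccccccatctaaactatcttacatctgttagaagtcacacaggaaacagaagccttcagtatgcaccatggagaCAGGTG
No CRE, TCF and LEF or GATA match was found in it. RUNX matches were found within 100 bp of the summit in 32.9% of 82 replicated regions of the 3 loci in replicate 1 and 27.7% of 83 in replicate 2, beside 20% and 19.9% of all replicated regions. ETS matches were found in 2.44% and 1.20%, beside 9.10% and 9.12%, and CRE in 6.10% and 6.02%, beside 2.86% and 2.83%. The E box was found in 15.9% and 20.5%, beside 14.9% and 14.8%, AP-1 in 13.4% and 14.5%, beside 18.6% and 19%, and TCF and LEF in 18.3% and 20.5%, beside 15.3% and 15.2%. GATA was found in 9.76% and 9.64%, beside 8.05% and 8.01%, and the CTCF core in 4.88% and 4.82%, beside 5.05% and 5.06%.

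**Figure D4:**
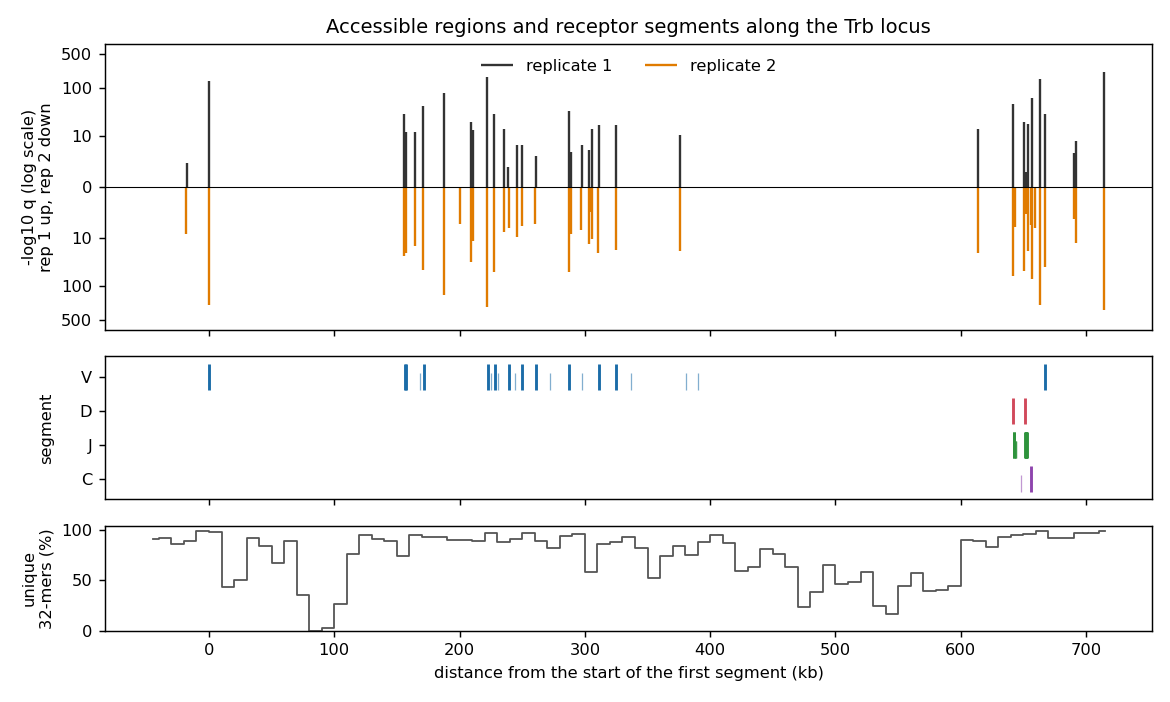
The Trb locus, drawn as for Tra/Trd. The 2 D segments, most V segments and Trbc2 are drawn tall, and 1 region stands between Trbv30 and Trbd1.

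The Trg window held 12 and 14 regions, 11 replicated, or 43.7 and 51.0 per Mb. Only 5 of the 11 lay between the first and the last segment. Apart from the start of Stard3nl (231.3 and 379.0), the highest were between Tcrg-V7 and Tcrg-V4 (37.8 and 59.4), 15087 bp before Tcrg-V7 (30.0 and 53.7) and 3310 bp past Tcrg-C4 (22.96 and 46.4), followed by Tcrg-V7. Within 15 kb past Tcrg-C4, introns of Stard3nl held 2 more, at 7.14 and 8.57 and at 23.2 and 27.4. The 53.5 kb with Tcrg-V4, Tcrg-V6, Tcrg-V5, Trgj1 and Tcrg-C1 held none in either replicate. Unique sequence made up 64.6% of this stretch and 100% around each of its 3 V segments. Past Tcrg-C2, replicate 2 alone listed a region (5.86).

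**Figure D5:**
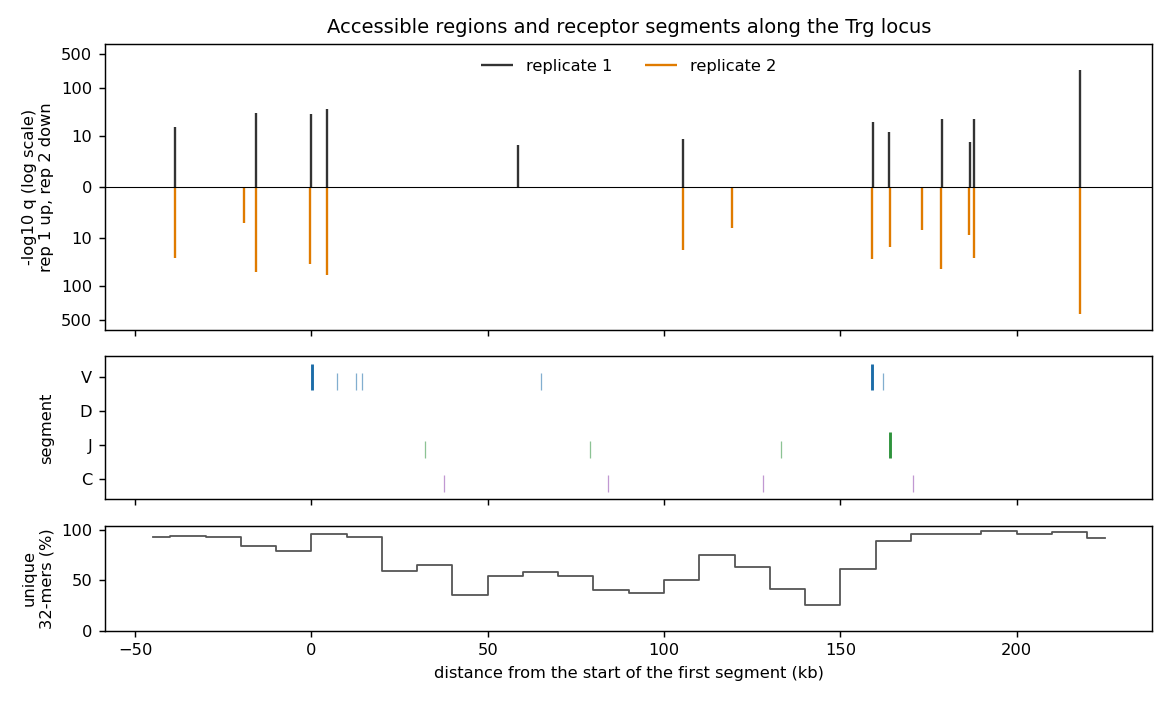
The Trg locus, drawn as for Tra/Trd. Accessible segments are Tcrg-V7 at the left and Trgv2 and Trgj4 at the right, and no C segment is drawn tall.

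The machinery that joins and uses the segments was described by a list of 19 genes, and 16 had a region within 1 kb of a start site in both replicates, where 64.3% of 21938 protein-coding genes did. The 3 without were Rag2, the partner of Rag1 in the recombinase, Dntt, which adds untemplated bases at the joins, and Ptcra, the surrogate alpha chain of immature T cells. Rag1 was counted, at 14.1 and 15.99, the lowest of the 16. End joining genes ranged higher, from 101.0 and 108.8 for Poll to 332.8 and 478.9 for Xrcc4. The CD3 and zeta chain genes, whose products carry the receptor's signal, lay between 122.5 for Cd3d and Cd3g and 163.5 for Cd247 in replicate 1 and between 129.7 for Cd3g and 261.0 for Cd247 in replicate 2.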

How the data were processed

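Accessible regions from 2 ATAC-seq libraries, both of mouse regulatory T cells, were used as deposited, 1 narrowPeak list per library on mm10, each made from 1 library and not from pooled reads, per the labels. Replicate numbers come from the labels. Aligner, peak caller, versions and the treatment of reads that map to several places remain not given in the sources used here, where the words ASTARR and insert in the region names also go unexplained. The deposited signal has no stated scale, so signal and the authors' deposited −log10 q values were ranked within each list only. The deposited score and −log10 p were not used. The lists hold no read counts, so depth is unknown and no interval is given.

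Segments came from GENCODE M21 and sequence from the GRCm38 (mm10) genome of RefSeq. Regions were joined to segments within 1000 bp and to loci with 50 kb on either side. Overlap of replicates meant at least 1 bp. Segments share regions and are not replicates, and there is 1 group, so no test was made. Uniqueness counted 32-base words on both strands. The joining step was tested on simulated data and recovered 53 of 53 planted segments among 226, with 0 false calls. The simulated segments lay far apart, so regions shared by close neighbours were not covered. Members and lists were chosen with earlier results of these data known. Named segments were every C and D, the first and last V and J of a locus, the 5 V and 5 J per locus with the highest mean −log10 q, every V or J with a region in 1 replicate only, and the 5 strongest regions per locus with those up to 15 kb past a C. Alternatives covered the −log10 q limit, the ranking, the overlap, the distance, the flank and each replicate alone. Python 3.11.15, numpy 2.4.6 and pandas 2.3.3 were used. The RefSeq promoter table held no receptor segment, so upstream windows were read from the genome. The upstream window of 1 further V segment is not reported here.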

Additional observations from a re-analysis of the deposited data

How the results depend on the processing

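Of 68 alternative values for the 4 segment classes and 3 loci, 55 stayed within 1.5 times the value reported and 13 did not. Limited to the 50000 regions of highest signal, the counts were 1 D, 3 J and 0 C segments, 16 replicated regions along Tra/Trd and 18 along Trb. Limited to the 50000 of highest −log10 q, Tra/Trd held 22 and Trb 21. Requiring 50 percent overlap of both regions left 1 C segment. Within 2 kb, 43 J segments were counted, and with a region overlapping the segment itself, an alternative chosen after seeing the data, 5 J and 0 D segments were. Trg held 5 replicated regions without flanks and 6 with 10 kb flanks. Taking each replicate alone gave 25 V, 2 D, 29 to 40 J and 2 to 3 C segments, and 41 to 43 regions along Tra/Trd, 35 to 42 along Trb and 12 to 14 along Trg. A second alternative added after seeing the data, regions of each replicate whether overlapping or not, kept all 4 class counts within 1.5 times. No paired analysis was possible because there was 1 group. Repeated sequence and unknown depth limit what an empty segment shows.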

Other observations

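Receptor pseudogene segments, which can no longer encode a receptor and were not counted as members, were accessible in 7 of 44 cases. These were 3 of 34 V (Trbv7, Trbv12-3 and Trbv28) and 4 of 10 J (Traj51, Traj14, Traj1 and Trbj2-6). The share was 10.3% among other genes shorter than 1 kb and 7.42% among genome tiles of 2500 bp. The regions of the J pseudogenes also lay within 1 kb of counted segments: Traj52, Traj15 and Traj16, Trac, and Trbj2-7. Trbv7 had a -log10 q of 80.4 in replicate 1 and 156 in replicate 2, above every Trbv except Trbv12-1 and Trbv1. The immunoglobulin segments, assembled by the same recombinase in B cells, were accessible in 13 of 218 V, 1 of 19 D, 1 of 14 J and 3 of 13 C cases.

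Among genes of other kinds that start inside the 3 windows, none of the 6 olfactory receptor genes around Trav1 had a replicated region at its start. Nor had any of the 7 genes within Trb with Try or Prss names, a group set by name. Most of these 7 lie between Trbv30 and Trbd1, where 60.6% of the sequence is unique. Of the other protein-coding genes, both in Tra/Trd (Dad1 and Abhd4), 1 of 9 in Trb (Ephb6) and the only 1 in Trg (Stard3nl) did. So did Gm42988, Gm30214, Gm43647, Gm38276, 5830405F06Rik, Gm38018 and Gm42683. Gm38276 starts beside Trbv1 and shares its region.

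Of 103 distinct regions in the windows 81 were replicated. Within 1 kb of them stood a V segment for 24 of the 81, a J segment for 12, a D with a J segment for 2 and a C segment for 4. A further 3 had a pseudogene segment, 6 the start of another gene and 30 none of these.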
